A study of Mus musculus with 32 samples.

Results

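The 34 genes described here encode enzymes and regulators of sterol and fatty acid synthesis, most of them known targets of the sterol regulatory element-binding proteins (SREBPs). They were listed by name, though with earlier results of these data known. Of 54418 gene identifiers in the count table, 34 carried these symbols, 20 in the sterol arm and 14 in the lipogenic arm. A minimum on counts left 5872 genes for testing, among them 22 of the 34 (13 of the sterol arm and 9 of the lipogenic arm), and 12 were too low. None of the 22 passed the test in any comparison of diets or genotypes (edgeR, adjusted p under 0.05), and the text below gives their values, their errors and where the ranges of the groups met.

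SREBP2, encoded by Srebf2, drives the genes that turn acetyl-CoA into cholesterol, while SREBP1, encoded by Srebf1, chiefly drives the genes that build fatty acids. Both precursors sit in the endoplasmic reticulum bound to SCAP, and INSIG proteins hold the complex there when sterols are plentiful. When sterols fall, SCAP escorts the precursor to the Golgi, where proteases release the active factor. In the intestine, epithelial cells take up sterol and fatty acids from food and also make both, and SREBP activity there responds to dietary lipid.

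The libraries held polyadenylated RNA of intestinal stem cells, taken as crypt cells with high GFP by flow cytometry after staining with an epithelial antibody and a viability dye, and counted near the 3' end of transcripts. There were 8 groups of 4 libraries. WT, PparD (genotype label Ppard-fl/fl), PparA (genotype label Ppara-null) and PparDA (both labels) mice, all of strain C57BL6, received either the control diet or the high-fat diet, and every library was labelled as GFP-high cells. Ppara and Ppard encode nuclear receptors that fatty acids activate, and the study concerned their part in how these cells respond to dietary fat. The sources used here do not state the driver of Ppard recombination, the diet's length, the age of the mice or whether the 4 libraries of a group came from separate animals. The p-values therefore measure library-to-library spread, which may be technical in part. In the main fit it also includes the differences between runs of library numbers described below.

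Library totals ran from 612672 to 724155 counts. Values below are counts per 1000000 counts of a library's total multiplied by its TMM scaling factor (CPM). These factors ran from 0.942 to 1.07. Per-library values are given in the order of the library numbers. Ppara and Ppard had at most 5 and 7 counts in any library, too few to check the genotype labels. The library numbers form 4 runs of 8, each holding every group once. The female-specific Xist was at 466 to 931 CPM in runs 1 and 3 and at no more than 9.72 CPM in runs 2 and 4. The Y-linked Ddx3y was at 0 CPM in runs 1 and 3 and at 14.3 to 38.9 CPM in runs 2 and 4. By these genes every group held female and male libraries, and so more than 1 animal, though the labels give no sex. Values within runs 1 and 3 and within runs 2 and 4 are therefore given beside results they bear on. The stem cell marker Lgr5 (28.0 to 64.3 CPM) and the epithelial marker Epcam (109 to 235 CPM) were found in every library. Summed markers of other epithelial cells varied widely, from 2056 to 42933 CPM for 9 Paneth cell genes and from 524 to 5107 CPM for 10 enterocyte genes.

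The promoters of Hmgcs1, Idi1 and Msmo1 are printed because these 3 sterol genes are named repeatedly below. Their windows hold the motif that was found for every sterol gene with a window. The windows run from 250 bases before to 50 bases after the RefSeq gene start on GRCm38.p6, and are written 5′ to 3′ on the gene's strand. Capitals mark matches on either strand to CCAAT, which reads as ATTGG when on the opposite strand, the box bound by NF-Y, a factor that works with SREBPs, and, in Hmgcs1, to TCACNCCAC, a form of the sterol regulatory element.
Hmgcs1 promoter, chr13:119690101-119690400, + strand: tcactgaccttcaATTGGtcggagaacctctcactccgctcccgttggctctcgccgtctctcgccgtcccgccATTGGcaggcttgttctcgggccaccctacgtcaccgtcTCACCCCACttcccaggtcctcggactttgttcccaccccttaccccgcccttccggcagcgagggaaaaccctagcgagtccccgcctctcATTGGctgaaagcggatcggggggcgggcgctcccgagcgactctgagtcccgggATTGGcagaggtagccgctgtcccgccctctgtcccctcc
Idi1 promoter, chr13:8885356-8885655, + strand: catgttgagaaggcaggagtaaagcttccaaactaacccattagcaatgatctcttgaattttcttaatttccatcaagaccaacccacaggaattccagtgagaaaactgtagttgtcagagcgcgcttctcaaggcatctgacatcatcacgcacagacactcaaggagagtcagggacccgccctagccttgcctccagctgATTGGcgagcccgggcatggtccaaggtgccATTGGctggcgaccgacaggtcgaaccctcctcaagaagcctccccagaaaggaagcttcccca
Msmo1 promoter, chr8:64733529-64733828, - strand: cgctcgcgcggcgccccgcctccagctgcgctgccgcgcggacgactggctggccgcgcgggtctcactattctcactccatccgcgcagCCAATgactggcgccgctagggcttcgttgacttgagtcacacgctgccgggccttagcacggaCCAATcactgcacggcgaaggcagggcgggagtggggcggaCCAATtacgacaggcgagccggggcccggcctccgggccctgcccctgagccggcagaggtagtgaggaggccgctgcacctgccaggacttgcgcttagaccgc
The Hmgcs1 window held 4 CCAAT boxes, that of Idi1 2 and that of Msmo1 3. The single TCACNCCAC match in Hmgcs1 began 137 bases before the start.

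A window was found for 27 of the 34 genes. CCAAT stood in at least 1 window of all 16 sterol genes with a window and of 8 of 11 lipogenic genes, the exceptions being Acaca, Elovl6 and Fads2. It stood in 25 of the 33 windows of these genes (75.8%) and in 37.4% of 32851 windows of all genes. TCACNCCAC was found on either strand in 1 of the 33 windows (3.03%), against 1.24% of all windows. The E-box CACGTG, which SREBPs can also bind, stood in 6 of the 33 windows (18.2%) and in 7.15% of all windows. The 6 belonged to Dhcr7, Hsd17b7, Insig1 and Sc5d of the sterol arm and Elovl5 and Slc25a1 of the lipogenic arm. No 2 of the matches printed overlap, and a match describes the letters only.

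The summed level of the sterol arm was 693 ± 111 CPM (SD, n = 32 libraries) and that of the lipogenic arm 301 ± 29.2 CPM. On the control diet the sterol sum was 721, 731, 721 and 529 CPM in WT, 759, 930.4, 792 and 594 CPM in PparD, 527, 765, 711 and 659 CPM in PparA and 519, 666, 598 and 615 CPM in PparDA. On the high-fat diet it was 846, 771, 599.7 and 684 CPM in WT, 717, 691, 629.9 and 673 CPM in PparD, 703, 703, 618 and 559 CPM in PparA and 644, 936, 626 and 928 CPM in PparDA. The ranges of the 2 diets overlapped in each genotype, and in PparDA 2 of the 4 high-fat libraries stood above all 4 control libraries while the other 2 lay within their range. The lipogenic sum stayed between 243 and 372 CPM in every library. In bulk RNA, a lower share of cells that express a gene and less of its RNA per cell cannot be told apart.

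**Figure D1:**
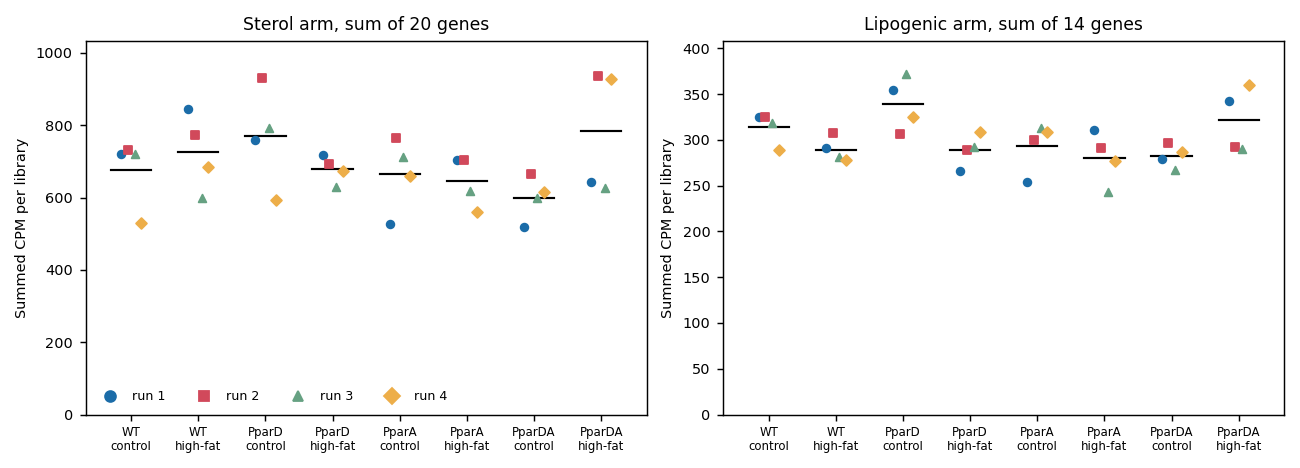
Summed CPM of the 20 sterol genes (left) and the 14 lipogenic genes (right) in each of the 32 libraries, by genotype and diet; points are libraries, coloured by run, and bars are group means. The diets overlap in every genotype, and the 2 highest PparDA high-fat sterol sums (936 and 928 CPM) belong to runs 2 and 4.

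The 12 genes below the minimum are accounted for by their ranges. In the sterol arm these were Mvk and Mvd, which act on mevalonate and its phosphates, Lss, which closes the sterol ring, Cyp51, Tm7sf2 and Dhcr7, later ring enzymes, and Insig1, the retention protein, at 0 to 24.5 CPM in any library. In the lipogenic arm they were Fasn and Acaca, the core fatty acid synthase and acetyl-CoA carboxylase, Scd1, a desaturase, Me1, which supplies NADPH, and Srebf1, at 0 to 18.4 CPM. Scd1 had 2 counts over all 32 libraries, in 2 libraries. The boundary fell among similar levels, with Sqle tested at a mean of 9.07 CPM and Lss and Cyp51 not tested at 9.43 and 8.96 CPM. The minimum was set over all 8 groups. Sqle and Acss2 passed it only with their PparDA high-fat libraries, the group where both had their highest mean. Their high values there, and their place in the counts of higher genes, are therefore partly fixed by the minimum.

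The high-fat diet moved no gene of either arm past the test in any genotype. In WT 0 of 22 were called by edgeR, with 0.102% of all 5872 genes called, 1 of the 22 had an unadjusted p under 0.05 (7.66% of all genes) and DESeq2 called 0 (0.119% of all genes). In PparD 0 were called (0.0851% of all genes), 5 had an unadjusted p under 0.05 (4.99% of all genes) and DESeq2 called 0 (0.222% of all genes). In PparA 0 were called (0.136% of all genes), 0 had an unadjusted p under 0.05 (5.79% of all genes) and DESeq2 called 0 (0.188% of all genes). In PparDA 0 were called (0.0341% of all genes), 5 had an unadjusted p under 0.05 (8.79% of all genes) and DESeq2 called 0 (0.597% of all genes). In the average over genotypes 0 were called (0.324% of all genes), 2 had an unadjusted p under 0.05 (9.03% of all genes) and DESeq2 called 0 (0.699% of all genes). The SE of a gene's log2 fold change between 2 groups ran from 0.11 to 0.68. Changes well above their SE also failed the test, as for Scd2 in WT and Acss2 in PparDA below. The lack of calls therefore does not show a lack of change. Adjusted p here is the Benjamini-Hochberg value over all tested genes of a comparison.

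The genes of each arm on either side of 0 were counted in every genotype, with no test of the counts. Of the 13 tested sterol genes, 10 had a higher level with the high-fat diet in WT (median log2 fold change 0.21), 1 in PparD (−0.16), 7 in PparA (0.01) and 13 in PparDA (0.47). Of all tested genes, 49.4% were higher in WT, 48.5% in PparD, 49.3% in PparA and 49.7% in PparDA. Of the 9 tested lipogenic genes, 4 were higher in WT (median −0.08), 1 in PparD (−0.26), 2 in PparA (−0.05) and 7 in PparDA (0.33). The WT sterol median was 0.05 without control library 26, the lowest of its group, with 8 of 13 higher, and 0.12 to 0.13 without library 2, 10 or 17. In PparD it was −0.097 without library 11, −0.11 without 20, −0.26 without 12 and −0.28 without 27, and in PparA it ran from −0.060 to 0.079, below 0 without library 5 or 29. Leaving out 1 library at a time also moved the lipogenic median, to −0.41 without library 4 and −0.45 without 12 in PparD, to between −0.13 and −0.020 in WT, to between −0.19 and 0.010 in PparA and to 0.50 without library 15 in PparDA. In PparDA the sterol median was 0.31 without high-fat library 16 or without 32, with 13 and 12 of 13 higher, and it was 0.16 within runs 1 and 3 (10 of 13 higher) and 0.63 within runs 2 and 4 (12 of 13 higher). The median over all tested genes lay between −0.0066 and −0.0020 in these comparisons. The genotype comparisons below share libraries with these diet comparisons.

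**Figure D2:**
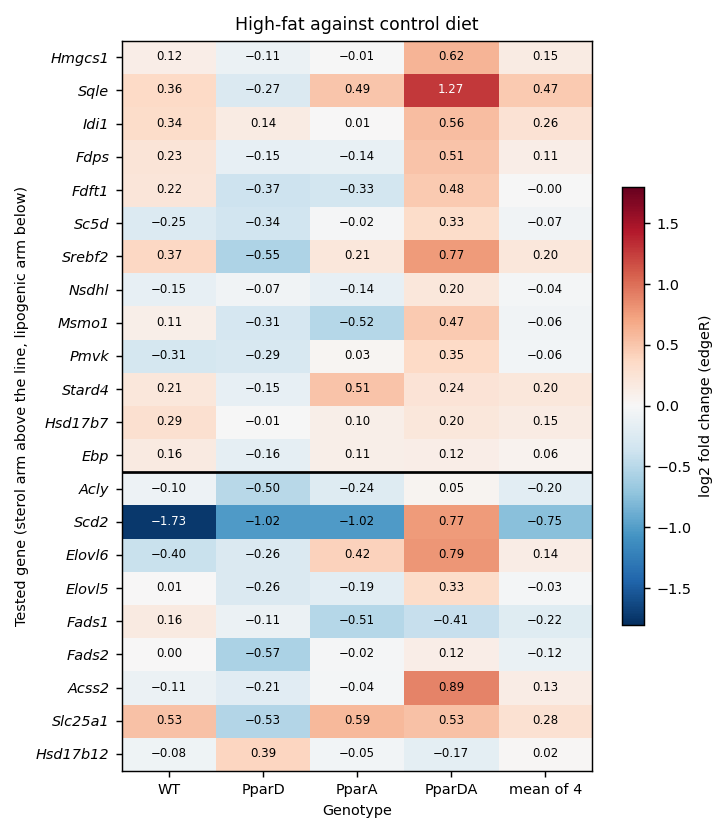
Log2 fold change of high-fat against control diet (edgeR, 4 libraries against 4) for the 22 tested genes in each genotype, and averaged over the 4 genotypes (right column); red is higher and blue lower on the high-fat diet. No value passed the test, the PparDA column is above 0 in all 13 sterol genes, and Scd2 is the lowest value in WT (−1.73).

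In marker lists of other cells, the summed enterocyte genes were higher with the high-fat than with the control diet in WT (1329 to 3279.6 CPM against 653 to 915 CPM) and PparD (1239 to 1613 against 616 to 1003 CPM), without overlap. In PparD the summed goblet genes (2864 to 4752 against 1392 to 2586 CPM, with 6 of 8 genes higher) and enteroendocrine genes (69.7 to 91.5 against 5.79 to 60.5 CPM, with 4 of 7 higher) were also higher with the high-fat diet and did not overlap. The enterocyte sums overlapped in PparA (1015 to 5107 against 524 to 3601 CPM) and in PparDA (1119 to 2958 against 1239.8 to 1678 CPM). By mean CPM, 7 of 10 enterocyte genes were higher with the high-fat diet in WT and 8 of 10 in PparD, in PparA and in PparDA. The summed Paneth cell genes ran from 7161 to 42933 CPM in WT high-fat libraries and from 4051 to 15633 CPM in WT controls, and from 9933 to 19284 CPM and 3769 to 40653 CPM in the same PparDA groups. Of the Paneth genes, 9 of 9 were higher with the high-fat diet in WT, in PparD and in PparA, and 2 of 9 in PparDA. No gene of the enterocyte, Paneth, goblet or enteroendocrine list was at 0 over a whole group. Their part in the sterol and lipogenic values was not tested.

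Srebf2, the gene of SREBP2, was among the genes with the smallest p in 2 genotypes, with log2 fold changes of opposite sign. Srebf2 on the control diet stood at 13.4, 21.9, 12.1 and 15.7 in WT, 24.7, 27.5, 19.2 and 23.7 in PparD, 19.7, 16.99, 10.9 and 21.4 in PparA and 12.1, 14.7, 10.7 and 11.5 in PparDA (CPM). Srebf2 on the high-fat diet stood at 18.6, 25.1, 16.97 and 21.3 in WT, 10.1, 13.1, 11.3 and 30.01 in PparD, 17.5, 17.8, 20.9 and 24.3 in PparA and 16.03, 26.6, 20.2 and 21.4 in PparDA. In PparDA all 4 high-fat libraries stood above all 4 control libraries, while in PparD 3 of the 4 high-fat libraries lay below every control library and 1, library 28, above them all. The PparDA high-fat group averaged 21.04 ± 4.34 CPM and its control group 12.2 ± 1.72 CPM (SD, n = 4), a log2 fold change of 0.77 ± 0.29 (SE, adjusted p = 0.435). In PparD the log2 fold change was −0.55 ± 0.27 (SE, adjusted p = 0.983), and −1.04 without library 28. The diet effect in PparD minus that in WT was −0.93 ± 0.38 (unadjusted p = 0.0213, adjusted p = 1), or −1.41 without library 28, a difference that did not pass. Ranges failed to overlap for 4.33% of all tested genes in PparDA and for 2 of these 22, Srebf2 and Acss2. Srebf2 lies on chromosome 15, 3.53 Mb from Ppara.

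The early steps of the sterol arm run from acetyl-CoA to the isoprenoid building blocks. Hmgcs1, which makes HMG-CoA, stood on the control diet at 52.2, 62.7, 48.5 and 30 in WT, 42.1, 56.4, 47.2 and 44.7 in PparD, 34.8, 33.98, 39.1 and 49.9 in PparA and 28.7, 35.2, 29.01 and 36.2 in PparDA (CPM). Hmgcs1 on the high-fat diet stood at 55.9, 56.2, 50.9 and 46.8 in WT, 41.9, 37.8, 43.8 and 52.9 in PparD, 43.6, 58.3, 19.3 and 35.6 in PparA and 35.3, 64.1, 43.4 and 55.1 in PparDA. Only library 8 of the PparDA high-fat libraries fell within the control range, and the log2 fold change there was 0.62 ± 0.24 (SE, adjusted p = 0.44). In WT it was 0.12 ± 0.22 (SE, adjusted p = 0.95), with overlapping ranges. Pmvk, which phosphorylates phosphomevalonate, ran from 24.0 to 68.1 CPM over all libraries and was at 0.35 ± 0.24 in PparDA and −0.31 ± 0.23 in WT (log2 fold change by diet).

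Idi1, the isomerase that makes the reactive isoprene unit, had the smallest unadjusted p of the sterol arm in WT and in the average over genotypes. Idi1 on the control diet stood at 83.05, 81.7, 99.9 and 77.1 in WT, 81.3, 133, 89.9 and 76.8 in PparD, 74.2, 127, 105 and 97.01 in PparA and 76.9, 113, 77.9 and 77.3 in PparDA (CPM). Idi1 on the high-fat diet stood at 136, 124, 83.4 and 87.9 in WT, 115, 107, 103 and 94.3 in PparD, 93.1, 129.6, 99.6 and 84.2 in PparA and 75.3, 159, 86.8 and 187 in PparDA. In PparDA 2 high-fat libraries, 16 and 32, stood above every other Idi1 value of the series, while library 24 lay within and library 8 just below the control range. Its log2 fold change was 0.56 ± 0.23 (SE, adjusted p = 0.471) in PparDA, against 0.06 in a fit of runs 1 and 3 and 0.86 in one of runs 2 and 4. In WT it was 0.34 ± 0.23 (SE, adjusted p = 0.813), or 0.21 without library 2, and averaged over genotypes 0.26 ± 0.12 (SE, adjusted p = 0.486).

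Fdps, which joins these units into farnesyl diphosphate, stood on the control diet at 66.97, 70, 63.6 and 42.9 in WT, 76.9, 72.3, 88.5 and 33.5 in PparD, 34.8, 72.6, 45.3 and 59.9 in PparA and 34.7, 55.8, 39.7 and 49.4 in PparDA (CPM). Fdps on the high-fat diet stood at 83.1, 91.6, 42.4 and 69.5 in WT, 79.4, 62.5, 50.8 and 51.4 in PparD, 68.4, 48.6, 41.8 and 34.01 in PparA and 57.7, 70.3, 35.7 and 91.9 in PparDA. Ranges overlapped in every genotype, and the log2 fold change by diet ran from −0.15 ± 0.28 in PparD to 0.51 ± 0.30 in PparDA. The predicted gene Gm43738 overlaps Fdps on the same strand (mean 65.1 CPM), so the split of reads between them is uncertain.

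Squalene synthesis and epoxidation commit the pathway to sterols. Fdft1, the squalene synthase, stood on the control diet at 66.97, 65.6, 74.2 and 42.9 in WT, 84.2, 122, 85.5 and 48.9 in PparD, 48.4, 72.6, 81.3 and 57.1 in PparA and 57.3, 30.8, 54.96 and 57.6 in PparDA (CPM). Fdft1 on the high-fat diet stood at 85.99, 73.9, 57.99 and 72.3 in WT, 89.5, 62.5, 45.2 and 65.7 in PparD, 48, 56.7, 57.8 and 43.7 in PparA and 49.7, 92.2, 60.5 and 76.6 in PparDA. Its diet ranges overlapped in each genotype, with log2 fold changes from −0.37 ± 0.24 in PparD, among the 2 smallest p of the sterol arm there (adjusted p = 0.999), to 0.48 ± 0.25 in PparDA. In PparD single libraries moved the Fdft1 value, to −0.15 without library 11, −0.23 without 20, and −0.56 without 4 or without 27. Fdft1 overlaps Ctsb on the opposite strand (776 CPM), which was not separable here because the strand setting of the counting is not given. Sqle, the squalene epoxidase, stood on the control diet at 9.38, 16.04, 3.03 and 1.43 in WT, 7.26, 11.6, 8.85 and 6.98 in PparD, 7.57, 3.09, 7.82 and 9.99 in PparA and 7.54, 10.3, 3.05 and 4.94 in PparDA (CPM). Sqle on the high-fat diet stood at 10.03, 8.87, 7.07 and 12.8 in WT, 2.89, 7.26, 4.24 and 14.3 in PparD, 17.5, 6.48, 3.21 and 12.96 in PparA and 17.6, 20.3, 3.10 and 22.97 in PparDA, and these values rest on 1 to 15 counts. In PparDA 3 of the 4 high-fat libraries stood above all controls and library 24 stood at their low end, for a log2 fold change of 1.27 ± 0.55 (SE, adjusted p = 0.482). Sqle passed the minimum on counts only with libraries of this high-fat group.

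Later enzymes trim the sterol ring. Msmo1, the oxidase that removes methyl groups from the ring, stood on the control diet at 70.99, 75.8, 60.6 and 40 in WT, 78.4, 95.5, 69.3 and 37.7 in PparD, 30.3, 71.1, 67.2 and 59.9 in PparA and 30.2, 57.2, 30.5 and 41.1 in PparDA (CPM). Msmo1 on the high-fat diet stood at 90.3, 65.03, 46.7 and 65.2 in WT, 54.9, 66.8, 52.3 and 52.9 in PparD, 53.8, 48.6, 33.7 and 22.7 in PparA and 40.1, 84.4, 43.4 and 53.6 in PparDA. In PparA the high-fat values lay within or below the control range and in PparDA they lay within or above it, for log2 fold changes of −0.52 ± 0.31 (SE, adjusted p = 0.911) and 0.47 ± 0.31 (SE, adjusted p = 0.718). Without library 30 the PparA value was −0.33. Ebp, the sterol isomerase, stood on the control diet at 119, 128, 121 and 110.0 in WT, 144, 178, 136 and 133 in PparD, 117, 147, 124 and 127 in PparA and 122, 151, 147 and 120.1 in PparDA (CPM). Ebp on the high-fat diet stood at 149, 130.1, 127 and 129 in WT, 133, 141, 131 and 123 in PparD, 151, 146, 143 and 113 in PparA and 154, 159, 149 and 124 in PparDA. Ebp had the smallest SE of the 22 genes in each diet comparison, with log2 fold changes between −0.16 ± 0.11 in PparD and 0.16 ± 0.12 in WT, the latter 0.11 without library 2. Nsdhl, which removes a carboxyl group, stood at 28.7 to 73.5 CPM, Sc5d, a ring desaturase, at 24.1 to 79.6 CPM and Hsd17b7, a ketosterol reductase, at 2.86 to 21.7 CPM. None of these 3 had an unadjusted p under 0.05 for diet in any genotype.

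Stard4, which carries sterol between membranes, stood on the control diet at 16.1, 11.7, 7.57 and 12.9 in WT, 13.1, 13.02, 10.3 and 9.78 in PparD, 10.6, 6.18, 10.9 and 11.4 in PparA and 6.03, 11.7, 10.7 and 18.1 in PparDA (CPM). Stard4 on the high-fat diet stood at 12.9, 22.2, 11.3 and 9.93 in WT, 10.1, 15.98, 8.47 and 7.15 in PparD, 20.4, 9.72, 16.1 and 9.72 in PparA and 25.6, 6.25, 12.4 and 10.7 in PparDA. It was among the 2 smallest p of the sterol arm in PparA, at a log2 fold change of 0.51 ± 0.39 (SE, adjusted p = 0.931), with overlapping ranges, and at 0.27 without library 6.

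Of the lipogenic genes that supply acetyl-CoA, Slc25a1 exports citrate from mitochondria. Slc25a1 on the control diet stood at 10.7, 14.6, 13.6 and 12.9 in WT, 21.8, 24.6, 4.42 and 23.7 in PparD, 9.08, 13.9, 10.9 and 29.96 in PparA and 7.54, 19.1, 25.95 and 23.04 in PparDA (CPM). Slc25a1 on the high-fat diet stood at 27.2, 14.8, 16.97 and 15.6 in WT, 11.5, 20.3, 12.7 and 7.15 in PparD, 23.3, 32.4, 19.3 and 22.7 in PparA and 30.4, 18.8, 21.7 and 38.3 in PparDA. In WT every high-fat library stood above every control library, by as little as 14.8 against 14.6 CPM, for a log2 fold change of 0.53 ± 0.41 (SE, adjusted p = 0.839), or 0.29 without library 2. That nearest pair had equal Slc25a1 counts, so its order rests on library scaling alone. Ranges did not overlap for 4.29% of all genes there. In PparA the log2 fold change was 0.59 ± 0.39 (SE, adjusted p = 0.93), with 1 control library (29) above 3 of the high-fat libraries and a value of 1.1 without it.

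Acly, which splits exported citrate into acetyl-CoA, stood on the control diet at 76.3, 59.8, 36.3 and 57.1 in WT, 62.4, 59.3, 79.6 and 62.8 in PparD, 54.5, 64.9, 54.7 and 74.2 in PparA and 49.8, 77.8, 44.3 and 51.01 in PparDA (CPM). Acly on the high-fat diet stood at 58.8, 60.6, 63.6 and 32.6 in WT, 40.4, 49.4, 35.3 and 61.5 in PparD, 72.7, 51.8, 44.98 and 40.5 in PparA and 64.1, 62.5, 49.6 and 55.1 in PparDA. In PparD 3 of 4 high-fat libraries lay below all controls, for a log2 fold change of −0.50 ± 0.23 (SE, adjusted p = 0.935). Acss2, which makes acetyl-CoA from acetate, stood on the control diet at 9.38, 8.75, 10.6 and 10 in WT, 18.9, 15.9, 10.3 and 9.78 in PparD, 10.6, 13.9, 9.38 and 11.4 in PparA and 4.53, 7.34, 13.7 and 13.2 in PparDA (CPM). Acss2 on the high-fat diet stood at 11.5, 8.87, 8.49 and 7.09 in WT, 10.1, 17.4, 9.89 and 10 in PparD, 8.73, 9.72, 12.9 and 12.96 in PparA and 27.2, 14.1, 13.95 and 16.8 in PparDA. In PparDA all 4 high-fat libraries stood above all 4 controls, by 13.95 against 13.74 CPM at the nearest, and the means were 18.03 ± 6.29 and 9.69 ± 4.50 CPM (SD, n = 4). That nearest pair had equal Acss2 counts, so its order rests on library scaling alone. Acss2 passed the minimum on counts only with libraries of this high-fat group. The log2 fold change was 0.89 ± 0.30 (SE, adjusted p = 0.389), against 1.15 in a fit of runs 1 and 3 and 0.61 in one of runs 2 and 4. Gss overlaps Acss2 on the opposite strand (86.4 CPM).

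Scd2 encodes a desaturase that puts a double bond into saturated fatty acids, and it lies on chromosome 19 (44293674 to 44306864, plus strand, GRCm38) beside its paralog Scd1. Scd2 on the control diet stood at 14.7, 42.3, 37.9 and 12.9 in WT, 34.8, 14.5, 38.3 and 20.9 in PparD, 4.54, 7.72, 18.8 and 14.3 in PparA and 13.6, 10.3, 4.58 and 0 in PparDA (CPM). Scd2 on the high-fat diet stood at 8.60, 8.87, 2.83 and 11.3 in WT, 11.5, 7.26, 22.6 and 11.4 in PparD, 5.82, 11.3, 1.61 and 3.24 in PparA and 14.4, 6.25, 6.20 and 22.97 in PparDA. In WT all 4 high-fat libraries lay below all 4 controls, in PparD and PparA the ranges overlapped with the lowest values on the high-fat diet, and in PparDA the high-fat range reached above the control range. The WT high-fat group averaged 7.91 ± 3.61 CPM and the WT control group 26.9 ± 15.3 CPM (SD, n = 4), with 2 control libraries at 42.3 and 37.9 CPM and 2 at 14.7 and 12.9 CPM. The log2 fold change was −1.73 ± 0.54 (SE, adjusted p = 0.431) in WT, −1.02 ± 0.50 (SE, adjusted p = 0.998) in PparD, −1.02 ± 0.68 (SE, adjusted p = 0.93) in PparA and 0.77 ± 0.64 (SE, adjusted p = 0.794) in PparDA. Fitted without a minimum on counts, the WT value was −1.71 with an adjusted p of 0.00116; leaving out each library in turn gave −1.96 to −1.43, with adjusted p of 0.197 to 0.935 in the filtered fit. Averaged over genotypes it was −0.75 ± 0.30 (SE, adjusted p = 0.437). Scd2 passed the minimum on counts only with control libraries, so its lower level in this average is partly fixed by the minimum.

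The next genes lengthen and desaturate fatty acid chains. Elovl6, which lengthens palmitate, stood on the control diet at 33.5, 16.04, 16.7 and 18.6 in WT, 15.96, 18.8, 20.6 and 15.4 in PparD, 6.06, 15.4, 21.9 and 15.7 in PparA and 9.05, 14.7, 10.7 and 19.7 in PparDA (CPM). Elovl6 on the high-fat diet stood at 11.5, 16.3, 18.4 and 18.4 in WT, 18.8, 4.36, 18.4 and 17.1 in PparD, 7.27, 17.8, 14.5 and 40.5 in PparA and 22.4, 25, 27.9 and 18.4 in PparDA. In PparDA 3 of 4 high-fat libraries stood above all controls, for a log2 fold change of 0.79 ± 0.40 (SE, adjusted p = 0.578). Hsd17b12, the ketoacyl reductase of the elongation cycle, stood on the control diet at 76.3, 64.2, 83.3 and 58.6 in WT, 66.7, 41.96, 67.8 and 69.8 in PparD, 65.1, 72.6, 59.4 and 61.3 in PparA and 93.5, 61.6, 71.8 and 93.8 in PparDA (CPM). Hsd17b12 on the high-fat diet stood at 73.1, 60.6, 72.1 and 60.99 in WT, 72.2, 66.8, 88.97 and 95.8 in PparD, 78.5, 53.5, 65.9 and 50.2 in PparA and 76.9, 60.9, 63.6 and 82.7 in PparDA. Its log2 fold change in PparD was 0.39 ± 0.17 (SE, adjusted p = 0.932), with 1 low control library (11), without which it was 0.25.

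Elovl5, which lengthens polyunsaturated chains, stood on the control diet at 38.8, 65.6, 48.5 and 57.1 in WT, 58.04, 47.8, 64.9 and 67.04 in PparD, 45.4, 40.2, 73.5 and 52.8 in PparA and 40.7, 55.8, 33.6 and 37.8 in PparDA (CPM). Elovl5 on the high-fat diet stood at 37.3, 65.03, 42.4 and 66.7 in WT, 37.5, 53.7, 52.3 and 54.3 in PparD, 52.4, 59.9, 32.1 and 40.5 in PparA and 35.3, 53.1, 63.6 and 59.7 in PparDA. Its log2 fold changes ran from −0.26 ± 0.23 in PparD to 0.33 ± 0.24 in PparDA. Fads1 and Fads2, neighbours on chromosome 19, encode desaturases of polyunsaturated fatty acids. Fads1 on the control diet stood at 21.4, 26.2, 24.2 and 24.3 in WT, 23.2, 40.5, 28.01 and 16.8 in PparD, 24.2, 23.2, 25.02 and 24.3 in PparA and 27.2, 14.7, 25.95 and 19.7 in PparDA (CPM). Fads1 on the high-fat diet stood at 30.1, 32.5, 21.2 and 24.1 in WT, 28.9, 31.96, 16.9 and 22.9 in PparD, 13.1, 19.4, 12.9 and 22.7 in PparA and 22.4, 15.6, 18.6 and 9.19 in PparDA. In PparA every high-fat library lay below every control library, by 22.7 against 23.2 CPM at the nearest (3.03% of all genes did not overlap there), for a log2 fold change of −0.51 ± 0.28 (SE, adjusted p = 0.903).

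Fads2 on the control diet stood at 22.8, 14.6, 28.8 and 31.4 in WT, 30.5, 30.4, 39.8 and 19.6 in PparD, 19.7, 30.9, 29.7 and 15.7 in PparA and 19.6, 19.1, 19.8 and 11.5 in PparDA (CPM). Fads2 on the high-fat diet stood at 17.2, 26.6, 28.3 and 25.5 in WT, 23.1, 23.2, 19.8 and 14.3 in PparD, 29.1, 17.8, 19.3 and 27.5 in PparA and 20.8, 18.8, 15.5 and 21.4 in PparDA. In PparD 1 control library (27) lay below 3 of the high-fat libraries, and the log2 fold change was −0.57 ± 0.26 (SE, adjusted p = 0.935). No gene of either arm had separate diet ranges in PparD, where 3.42% of all genes did.

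**Figure D3:**
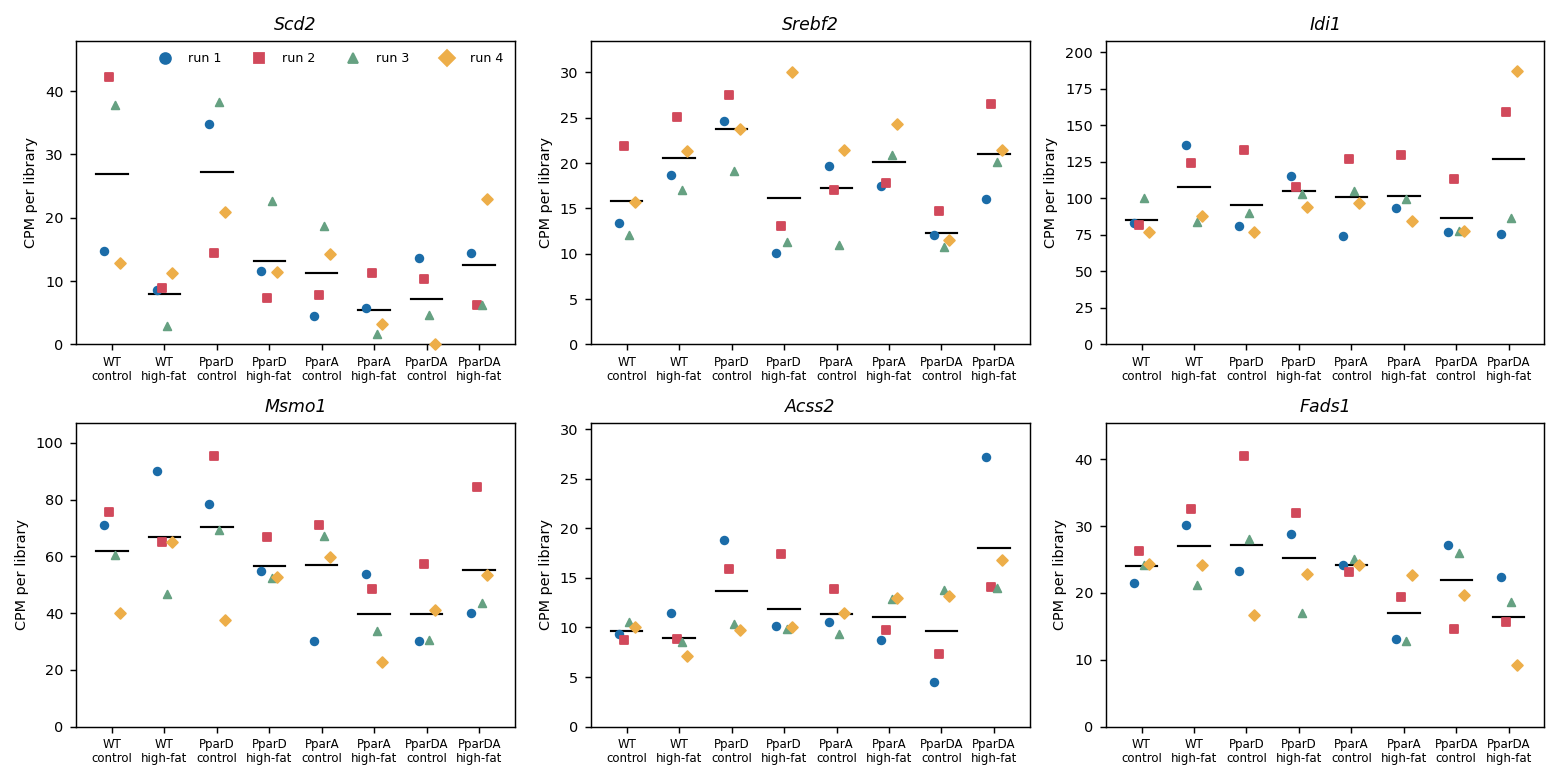
CPM per library of Scd2, Srebf2, Idi1, Msmo1, Acss2 and Fads1 by genotype and diet; points are libraries, coloured by run, and bars are group means. WT Scd2 is at 2.83 to 11.3 CPM in high-fat libraries and 12.9 to 42.3 CPM in the controls, and PparDA Srebf2 and Acss2 are higher in all 4 high-fat than in all 4 control libraries. For Acss2 the nearest pair had equal counts and differs by library scaling alone.

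Whether the diet effect differed between a mutant and WT was tested directly. For PparDA minus WT, 0 of the 22 and 0.0% of all genes were called by edgeR, 338 genes (5.76%) had an unadjusted p under 0.05, 2 of the 22 (Scd2 and Elovl6) among them, and DESeq2 called 1 gene (0.0171%), none of the 22. Scd2 had the smallest p of the list, at 2.50 ± 0.84 on the log2 scale (unadjusted p = 0.00579, adjusted p = 0.605), and without a minimum on counts its adjusted p was 0.00535. Of the sterol genes 11 of 13 had a higher diet effect in PparDA than in WT (median 0.35), as had 49.7% of all genes, with medians of 0.21 to 0.48 when each library was left out. The lipogenic median was 0.15, and 0.35 without library 15. For PparD minus WT 0 of 22 were called (0.0511% of all genes), 1 had an unadjusted p under 0.05 (3.61% of all genes) and DESeq2 called 0 (0.136% of all genes). The sterol median there was −0.32 and the lipogenic median −0.27, or −0.024 without library 11. For PparA minus WT 0 of 22 were called (0.153% of all genes), 0 had an unadjusted p under 0.05 (8.14% of all genes) and DESeq2 called 0 (0.119% of all genes).

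Set against WT on the control diet, none of the 22 genes was called in any mutant by edgeR or DESeq2, and the 3 comparisons share the WT libraries. In PparD 0.204% of all genes were called (DESeq2 0.205%), and 2 of the 22 had an unadjusted p under 0.05, against 7.71% of all genes. Ebp stood at 144, 178, 136 and 133 CPM in PparD against 119, 128, 121 and 110.0 CPM in WT. Its ranges did not overlap (3.97% of all genes), at a log2 fold change of 0.30 ± 0.12 (SE, adjusted p = 0.451), or 0.20 without PparD library 11. Srebf2 was at 0.59 ± 0.27 (SE, adjusted p = 0.577). In PparA 0.562% of all genes were called (DESeq2 0.733%), and 1 of the 22, Scd2, had an unadjusted p under 0.05 (−1.22 ± 0.52 SE, adjusted p = 0.461), against 8.89% of all genes. In PparDA 1.87% of all genes were called (DESeq2 1.93%), and 6 of the 22 had an unadjusted p under 0.05, against 13.8% of all genes. These were Scd2 (−1.85 ± 0.56 SE, adjusted p = 0.0918), Hsd17b7 (1.19 ± 0.47), Pmvk (−0.65 ± 0.24), Hmgcs1 (−0.58 ± 0.24), Sc5d (−0.52 ± 0.24) and Msmo1 (−0.63 ± 0.30). Hsd17b7 passed the minimum on counts only with PparDA libraries, so its higher level there is partly fixed by the minimum. Of the sterol genes 10 of 13 were lower than in WT (median −0.32, and −0.16 without WT library 9) and 3 higher, where 50.5% of all genes were higher. No gene of the 22 had separate ranges in PparDA, where 7.8% of all genes did, or in PparA, where 4.05% did.

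The same held on the high-fat diet, with 0 of 22 called in each mutant against WT by edgeR and by DESeq2. In PparD 0.017% of all genes were called (DESeq2 0.102%), and 0 of the 22 had an unadjusted p under 0.05 (3.78% of all genes) or separate ranges (3.18%). In PparA 0.749% were called (DESeq2 1.25%), and 2 of the 22 had an unadjusted p under 0.05 (11.7% of all genes), Fads1 (−0.66 ± 0.27 SE, adjusted p = 0.303) and Msmo1 (−0.74 ± 0.30 SE, adjusted p = 0.303). Fdft1 was the single gene of the list with separate ranges there (6.4% of all genes), at 48, 56.7, 57.8 and 43.7 CPM in PparA and 85.99, 73.9, 57.99 and 72.3 CPM in WT. In PparDA 1.57% were called (DESeq2 1.74%), and 3 of the 22 had an unadjusted p under 0.05 (13.6% of all genes). Acss2 was higher in PparDA (0.99 ± 0.30 SE, adjusted p = 0.129), as was Hsd17b7 (1.1 ± 0.44 SE, adjusted p = 0.25), and Fads1 was lower (−0.71 ± 0.27 SE, adjusted p = 0.221). Hsd17b7 stood at 16.03, 17.2, 21.7 and 13.8 CPM in PparDA against 7.17, 7.39, 9.90 and 7.09 CPM in WT. Acss2 and Hsd17b7 had separate ranges, as had 7.87% of all genes. Both passed the minimum on counts only with PparDA libraries, so their higher levels there are partly fixed by the minimum.

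The 16 Ppara-null libraries (PparA and PparDA) were also set against the 16 others, averaged over Ppard genotype and diet. Here 7.54% of all tested genes were called by edgeR and 0 of the 22, while DESeq2 called 1, Scd2 (adjusted p = 0.027), and 7.33% of all genes. An unadjusted p under 0.05 was found for 9 of the 22, against 19.0% of all genes. In the lipogenic arm Scd2 (−0.92 ± 0.30 SE, adjusted p = 0.0566) and Fads1 (−0.39 ± 0.13 SE, adjusted p = 0.0692) were lower and Slc25a1 (0.45 ± 0.20 SE, adjusted p = 0.202) higher in the Ppara-null libraries. Scd2 passed the minimum on counts only with the other libraries, so its lower level here is partly fixed by the minimum. In the sterol arm Msmo1 (−0.43 ± 0.15 SE, adjusted p = 0.0801), Sc5d (−0.32 ± 0.12 SE, adjusted p = 0.106), Hmgcs1 (−0.27 ± 0.12), Fdft1 (−0.28 ± 0.12) and Fdps (−0.32 ± 0.15) were lower and Hsd17b7 (0.61 ± 0.23 SE, adjusted p = 0.106) higher. Hsd17b7 passed the minimum on counts only with Ppara-null libraries, so its higher level here is partly fixed by the minimum. The arm medians were −0.11 (sterol) and −0.01 (lipogenic). Leaving out 1 library gave sterol medians of −0.14 to −0.012, the latter without library 28, and lipogenic medians of −0.13, without library 30, to 0.013.

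These values lay close to the threshold, and single libraries decided them. Leaving out 1 of the 32 libraries at a time gave 0 to 2 called genes of the 22, where the fit of all 32 called 7.54% of all genes. Scd2 was called without any 1 of libraries 1, 7, 11, 12, 14, 18, 21, 26 or 32, Msmo1 without 15, 16 or 27, Fads1 without 8, 20 or 27, and Hsd17b7 without 11 or 21. With the run as a block Msmo1 was called (−0.43, adjusted p = 0.0289), as were 8.96% of all genes, and Scd2 was not (adjusted p = 0.0637). In fits of runs 1 and 3 and of runs 2 and 4, Msmo1 was at −0.67 and −0.22 and Scd2 at −1.1 and −0.69. The enterocyte marker sum was 524 to 5107 CPM (median 1519.7) in the Ppara-null and 616 to 3279.6 CPM (median 1121) in the other libraries, with all 10 markers higher in the former, and all 8 goblet markers were higher too. The Paneth marker sum had a median of 12497 CPM in the Ppara-null (2876 to 40653 CPM) and 6250.1 CPM in the other libraries (2056 to 42933 CPM), with 7 of 9 genes higher in the former. Their part in these values was not tested.

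**Figure D4:**
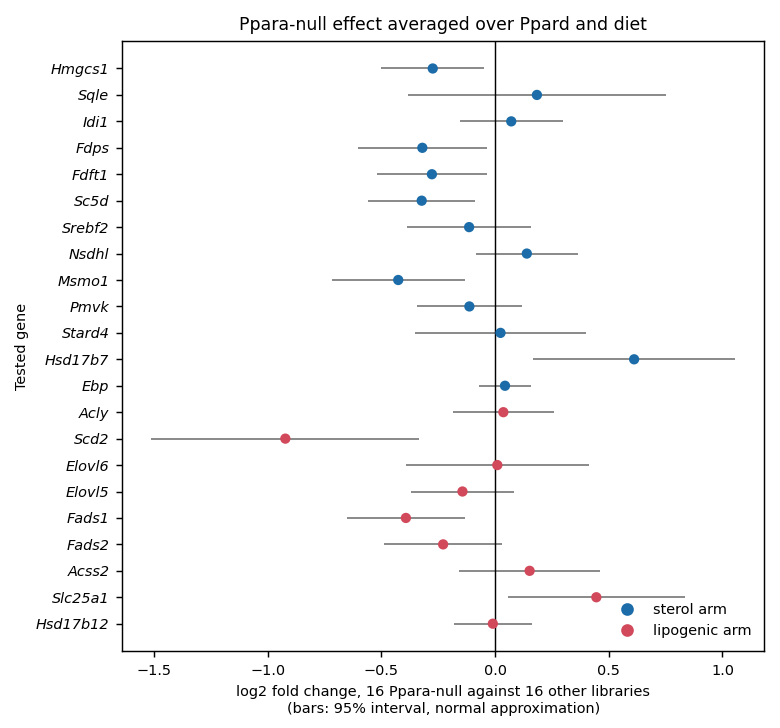
Log2 fold change (edgeR) of the 22 tested genes in 16 Ppara-null against 16 other libraries, averaged over Ppard genotype and diet; points are estimates, bars 95% intervals by normal approximation, without adjustment for the number of genes, and colours the arms. Scd2 (−0.92) is lowest and Hsd17b7 (0.61) highest, and no adjusted p is under 0.05. Each of these genes passed the minimum on counts only with the side where it was higher.

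In Ppard-fl/fl libraries, averaged over Ppara genotype and diet, edgeR called 0 of the 22 against 0.954% of all genes and DESeq2 0 against 1.76%. An unadjusted p under 0.05 was found for 1 of the 22, Hsd17b7 (0.54 ± 0.23 SE, adjusted p = 0.297), and for 12.3% of all genes. Hsd17b7 passed the minimum on counts only with Ppard-fl/fl libraries, so its higher level here is partly fixed by the minimum.

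Other genes of these pathways, in lists chosen by function, were counted in the same way. Of 7 genes of SREBP processing 2 were tested, of 15 other sterol synthesis and uptake genes 9, of 9 LXR and sterol export genes 4 and of 25 other genes of fatty acid synthesis, elongation and NADPH supply 12. None of these 27 was called for diet in any genotype or in the average over genotypes. The smallest adjusted p for diet belonged to Mlxipl, a glucose-sensing activator of lipogenic genes, at −0.48 ± 0.15 (SE, adjusted p = 0.229) in the average, and to Soat1, which esterifies cholesterol, at −0.34 ± 0.11 (SE, adjusted p = 0.323). In the smallest-p rule for the other lists, G6pdx, which supplies NADPH, was at 0.26 ± 0.10 in the average, Ufd1 at 0.38 ± 0.14 in WT, Mbtps1, the protease that cuts SREBP precursors, at −0.57 ± 0.41 in PparD, Lpcat3 at 1.05 ± 0.35 and Npc2 at −0.33 ± 0.13 in PparA, and Abcg8 at −0.81 ± 0.40 in PparDA (log2 fold changes ± SE).

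In the Ppara-null average 2 of the 12 tested genes of the last list were called, and none of the other lists, where 7.54% of all tested genes were called. Both were higher in the Ppara-null libraries. They were Dgat1, which makes triglyceride (0.87 ± 0.22 SE, adjusted p = 0.00943), and Acsl5, which activates fatty acids (0.74 ± 0.20 SE, adjusted p = 0.0146). Dgat1 in PparA stood at 12.1, 43.3, 21.9 and 29.96 CPM in the controls and 17.5, 82.6, 19.3 and 63.2 CPM in the high-fat libraries, and in WT at 20.1, 13.1, 25.7 and 15.7 and 20.1, 10.3, 14.1 and 21.3 CPM. Acsl5 in PparA stood at 25.7, 80.3, 35.96 and 62.8 and 27.6, 112, 22.5 and 71.3 CPM, and in WT at 24.1, 43.7, 24.2 and 37.1 and 25.8, 16.3, 26.9 and 18.4 CPM. The 4 high PparA libraries of both genes, 13, 14, 29 and 30, had enterocyte marker sums of 3601, 5107, 1595 and 3105 CPM, and the other 4 PparA libraries 524 to 1243 CPM. The 4 high libraries are those of runs 2 and 4, so marker level, run and the sex read from Xist and Ddx3y cannot be told apart here. The part of any of them in these values was not tested. The average also rests on PparDA and PparD libraries, whose values of both genes are not printed here. Within runs 1 and 3 the log2 fold changes were 0.23 and 0.33 and not called. Leaving out each library in turn kept both called, with 0.75 to 0.94 for Dgat1 and 0.61 to 0.81 for Acsl5. Dgat1 lies on chromosome 15, 9.22 Mb from Ppara.

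How the genes varied together was described over the 32 libraries after group means were removed. Among the 78 pairs of sterol genes the median Pearson correlation was 0.17 and 61 pairs were above 0, against a median of −0.00091 over all pairs of tested genes. With run means removed as well, the sterol median was 0.13 and 53 pairs were above 0. The 36 lipogenic pairs had a median of −0.07, with 11 above 0, and the 117 pairs between the arms a median of 0.03 (0.020 to 0.070 without 1 library). The highest sterol pairs were Fdps with Msmo1 (0.77), Idi1 with Msmo1 (0.68), Msmo1 with Ebp (0.66) and Idi1 with Fdps (0.64). In the lipogenic arm Acss2 with Slc25a1 reached 0.56 and Elovl5 with Acss2 −0.53. The points share libraries, sorts and depth, so no p is given.

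**Figure D5:**
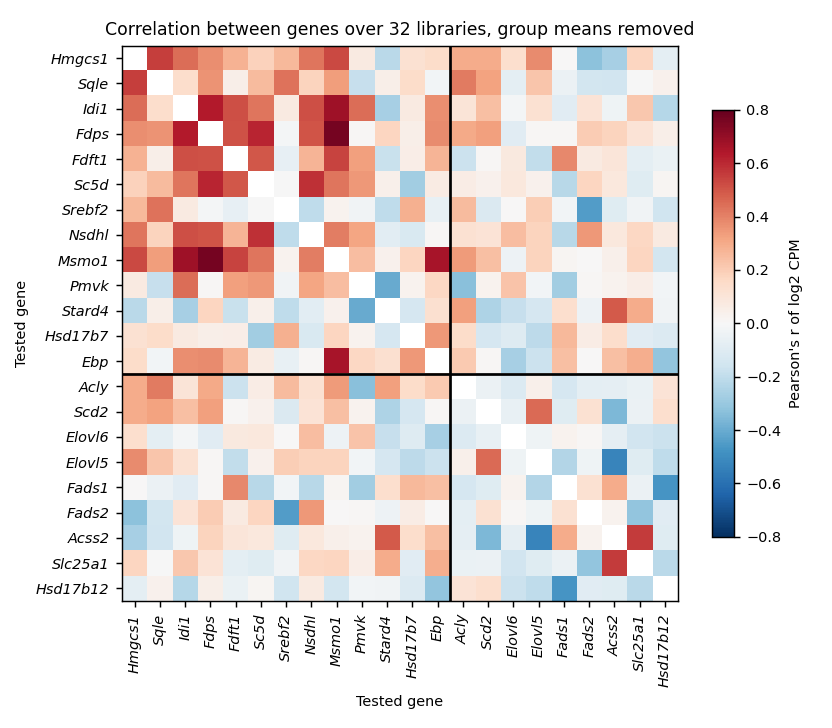
Pearson correlation of log2 CPM between the 22 tested genes over 32 libraries with group means removed; black lines part the sterol arm (upper left block) from the lipogenic arm (lower right block). The sterol block holds most of the high values, led by Fdps with Msmo1 at 0.77, and the lipogenic block has a median of −0.07.

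Differences among the 4 runs within groups were tested too, and 0 of the 22 were called by edgeR and by DESeq2, with 5.3 and 5.06% of all genes called. An unadjusted p under 0.05 was found for 4 of the 22, against 20% of all genes: Ebp (adjusted p = 0.0884), Msmo1 (adjusted p = 0.115), Idi1 and Hsd17b12. Without a minimum on counts Msmo1 was called, as were 582 of all 21299 genes then tested.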

How the data were processed

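The deposited table holds the authors' expected counts by gene and library, already whole numbers; all estimated counts were used as deposited. A second table of log2 values was not used. Per the submitters' processing notes, the mouse build was mm10 and the tools named were R 4.0.2, Salmon 1.1.0 and edgeR 3.30.2, with no roles given; use of molecular identifiers and of strand is not given in the sources used here. Columns named each library's group and number; 0 columns belonged to no listed sample. Identifiers were matched to GENCODE M21 (54096 of 54418).

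Genes were kept by filterByExpr over the 8 groups (minimum count 10, minimum total 15), which left 5872 genes with 97.1 to 97.7% of counts. Quasi-likelihood models (edgeR 4.0.16, R 4.3.3, TMM factors of 0.942 to 1.07, 1 coefficient per group, 32 libraries) gave 16 two-sided comparisons, with p adjusted by Benjamini-Hochberg over all tested genes, and an F test among runs. DESeq2 1.42.0 was an alternative. Others were another scaling, no minimum on counts, a robust prior, the run as a block, fits within runs, fits of only the groups compared, and leaving out each library. Correlations used log2 CPM with a prior count of 2. The edgeR fit was tested on simulated data.

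Per-library values are given for genes called in any comparison, for the 5 genes of each arm with the highest mean CPM and for up to 2 genes of each arm with the smallest p in each diet comparison. Other genes named were chosen after their values were seen. The values of 1 listed pathway gene are not reported here. The genes, lists and comparisons were chosen with earlier results of these data known. Promoters are RefSeq windows on GRCm38.p6.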

Additional observations from a re-analysis of the deposited data

Results flagged for a closer look

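Within groups of 4 libraries, a single library stood far from the other 3 in 16 of 192 groups looked at (8.33%), by the ratio of its gap to the group's range (above the 95% limit of Dixon's test); chance gives about 1 in 20. In the control groups the sterol sum of WT library 26 was 529 CPM (others 721 to 731), Elovl6 of WT library 1 was 33.5 CPM (others 16.04 to 18.6), Slc25a1 of PparD library 19 was 4.42 CPM (others 21.8 to 24.6) and Hsd17b12 of PparD library 11 was 42.0 CPM (others 66.7 to 69.8). Stard4 of PparA library 13 was 6.18 CPM (others 10.6 to 11.4). In the PparDA control group, Idi1 of library 15 was 113 CPM (others 76.9 to 77.9), Fdft1 of the same library 30.8 CPM (others 55.0 to 57.6) and Fads2 of library 31 11.5 CPM (others 19.1 to 19.8).

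In the WT high-fat group Ebp of library 2 was 149 CPM (others 127 to 130.1), Acly of library 25 was 32.6 CPM (others 58.8 to 63.6) and Hsd17b7 of library 18 was 9.90 CPM (others 7.09 to 7.39). In the PparD high-fat group Srebf2 of library 28 was 30.0 CPM (others 10.1 to 13.1) and Nsdhl of that library 41.4 CPM (others 44.8 to 45.2). There, library 12 had Elovl6 at 4.36 CPM (others 17.1 to 18.8) and Acss2 at 17.4 CPM (others 9.89 to 10.1), and library 4 had Elovl5 at 37.5 CPM (others 52.3 to 54.3). Of these, the high Srebf2 value of library 28 and the low sterol sum of library 26 bear on diet comparisons described above.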

How the results depend on the processing

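The count of called genes stayed at 0 of 22 in each of the 16 comparisons under another scaling, a robust prior and fits within runs. It also stayed at 0 in fits of only the groups compared. Those fits were not run for the diet, Ppara-null and Ppard-fl/fl averages, which use all 8 groups. Without a minimum on counts 1 gene, Scd2, was called for diet in WT, in the diet average, in PparDA against WT on the control diet and in PparDA minus WT (log2 values −1.71, −0.74, −1.86 and 2.48), and 2, Scd2 (−0.93) and Msmo1 (−0.43), in the Ppara-null average; 1, Msmo1, was called among runs. Of the 21299 genes tested without the minimum, 99 were called for diet in WT, in place of 6 of 5872. In the diet average 148 were called, in PparDA against WT on the control diet 327 and in PparDA minus WT 71. In the Ppara-null average 712 were called and among runs 582. The cause of the larger numbers was not tested. In the Ppara-null average DESeq2 called 1 (Scd2, −0.94), the run as a replicate block 1 (Msmo1, −0.43), and leaving out 1 library gave 0 to 2. No analysis paired by replicate was possible because the columns carry no replicate number of the labels. The run was fitted as a block in an alternative fit. After group means were removed, 31 of 32 libraries correlated best with a library of their own run, and 84 of 112 same-run pairs were over 0.1. The median correlation was 0.15 within runs and −0.060 between runs. The main fit had no block, so differences between runs stayed in its spread. Under the block 44 genes in place of 19 were called in the diet average (DESeq2 41), 9 in place of 2 for diet in PparDA (DESeq2 35), 14 in place of 5 in PparD (DESeq2 13), 18 in place of 8 in PparA, and 144 in place of 56 for Ppard-fl/fl (DESeq2 103).

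Arm medians moved by more than the spread between libraries in 6 cases. The sterol median was 0.16 for diet in PparDA (runs 1 and 3), 0.19 in PparA against WT on the control diet (runs 2 and 4) and −0.32 in PparDA against WT on the high-fat diet (runs 1 and 3). The lipogenic median was 0.32 in that last comparison (runs 2 and 4). Leaving out libraries gave −0.34 to −0.024 for PparD minus WT and 0.094 to 0.35 for PparDA minus WT. Within runs 1 and 3 the sign turned for Hsd17b7 in PparA against WT on the control diet (−0.021), Slc25a1 in PparA against WT on the high-fat diet (−0.047) and Nsdhl in PparDA against WT on the high-fat diet (−0.10). Co-variation kept its sign in both arms with a prior count of 1 and without each library. Sqle, Hsd17b7, Stard4 and Acss2 averaged under 9 counts a library, which limits their precision.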
